A study of Caenorhabditis elegans with 48 samples.

Results

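Auxin was followed by higher mRNA of a small set of glutathione, sulfur and conjugation genes in starved Caenorhabditis elegans larvae. The larvae carried the plant protein TIR1 and no protein tagged for degradation. The measurements came from 16 of the 48 mRNA-seq libraries of the series, which were all the libraries collected at 132 h from the 2 strains that carry the plant F-box protein TIR1 and no degron. Strain CA1200, with the transgene ieSi57 and named Peft-3::TIR1, makes TIR1 in the soma from the eft-3 promoter. Strain CA1352, with the transgene ieSi64 and named Pgld-1::TIR1, makes TIR1 in the germline from the gld-1 promoter. Each transgene is inserted on chromosome II, carries mRuby fused to TIR1 and brings a Cbr-unc-119(+) rescue marker, so every library in this comparison contains TIR1 and none contains an AID-tagged protein. Larvae had hatched without food and were held in L1 arrest at 20°C. From 36 h they were kept in 100 µM auxin (indole-3-acetic acid added from an ethanol stock) or in ethanol alone for 96 h, and were then collected whole. Each strain had 4 auxin and 4 ethanol libraries, so that 8 auxin libraries were set against 8 ethanol libraries with the strain as a term of the fit. The other libraries came from the same strains at 36 h, before auxin, and from 2 strains in which the RNA polymerase II subunit AMA-1 was tagged. These were Pgld-1::TIR1; ama-1::AID (LRB387, the germline degron strain) and its counterpart with TIR1 in the soma, Peft-3::TIR1; ama-1::AID (LRB389, the somatic degron strain).

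The auxin-inducible degron system works because TIR1, once bound by auxin, recruits a degron-tagged protein to the SCF ubiquitin ligase, which marks it for the proteasome. Auxin is an indole carboxylic acid made by plants and bacteria, and a worm that takes it up meets it as a foreign small molecule. Animals dispose of such molecules by oxidizing them with cytochrome P450 enzymes, by joining them to sugars with UDP-glycosyltransferases or to the cysteine-containing tripeptide glutathione with glutathione S-transferases, and by exporting them with ABC transporters. In C. elegans the Nrf-like transcription factor SKN-1 activates many of the glutathione genes when electrophiles or oxidants accumulate, and the adaptor WDR-23 targets SKN-1 for degradation when they do not. The libraries in ethanol share starvation, time in culture and TIR1 with the auxin libraries. No strain without TIR1 was compared, so an effect of auxin bound to TIR1 and one of auxin itself cannot be told apart.

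The 16 libraries had between 5776631 and 13422695 counts assigned to genes. In Pgld-1::TIR1 the auxin libraries were deeper, with 10837100 to 13422695 counts, against 5776631 to 11589994 with ethanol. A total of 15549 protein-coding genes had more than 10 counts in at least 4 of the 48 libraries and were tested. Of 8 summary measures of the libraries (depth, genes detected, spike-in share, rRNA share, the share of the 10 most abundant genes, a factor estimated from the spike-ins and the first 2 principal components), none differed between auxin and ethanol after adjustment (exact permutation within strains, smallest adjusted p = 0.407, 4900 arrangements). Individual libraries did stand apart. The auxin library of replicate 1 of Peft-3::TIR1 lay at −67.9 on principal component 2, where the other 3 auxin libraries of that strain lay between 2.36 and 3.27, and 22.2% of its counts were rRNA. In the ethanol library of replicate 4 of Pgld-1::TIR1, 6.41% of the counts were spike-ins, against 1.69% to 2.09% in the other 3 of its group. Summed markers of body wall muscle were between 2510 and 5710 counts per 1000000 gene counts in all 16 libraries and those of sperm between 0.518 and 4.93. Of the markers of 10 tissues and stages that were tested, none passed between auxin and ethanol. Of the sperm markers 1 of 8 and of the embryo markers 4 of 8 had enough counts to be tested. In whole larvae, fewer cells of a type and less RNA per cell cannot be told apart.

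Auxin raised 7 genes and lowered none at an adjusted p under 0.05 in edgeR's quasi-likelihood test, which was 0.045% of the genes tested. The 7 were W06H8.2, gst-4, ugt-13, gst-7, gst-5, cysl-2 and cth-2, and their fitted changes ran between 1.16 and 2.15 on the log2 scale with a median of 1.90, against a median of 0.02 over all genes. Levels of genes are given as CPM, counts scaled to 1000000 counts on the genes tested after upper-quartile normalization. At an unadjusted p under 0.05 there were 566 genes higher (3.64%) and 373 lower (2.4%), together 6.04%. DESeq2 called 23 genes higher, all 7 among them, and 0 lower, with 453 lower at an unadjusted p under 0.05. By the protocol, the strains were bleached in parallel for each biological replicate and a strain's flasks were filled from that preparation. That equal numbers mark one preparation is read from this and is not given sample by sample, and 4 of 8 same-numbered pairs deviated together with a correlation above 0.1, so the addition of the 10 genes by the block rests on that reading. With the replicate number as a block, 17 genes were higher (0.109%) and 0 were lower, with 490 lower at an unadjusted p under 0.05. The 17 held all 7, and the 10 others were F56D5.3, dhs-8, osgn-1, gsr-1, gst-12, wdr-23, T25B9.9, fcmt-1, alh-1 and F17A9.4.

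**Figure D1:**
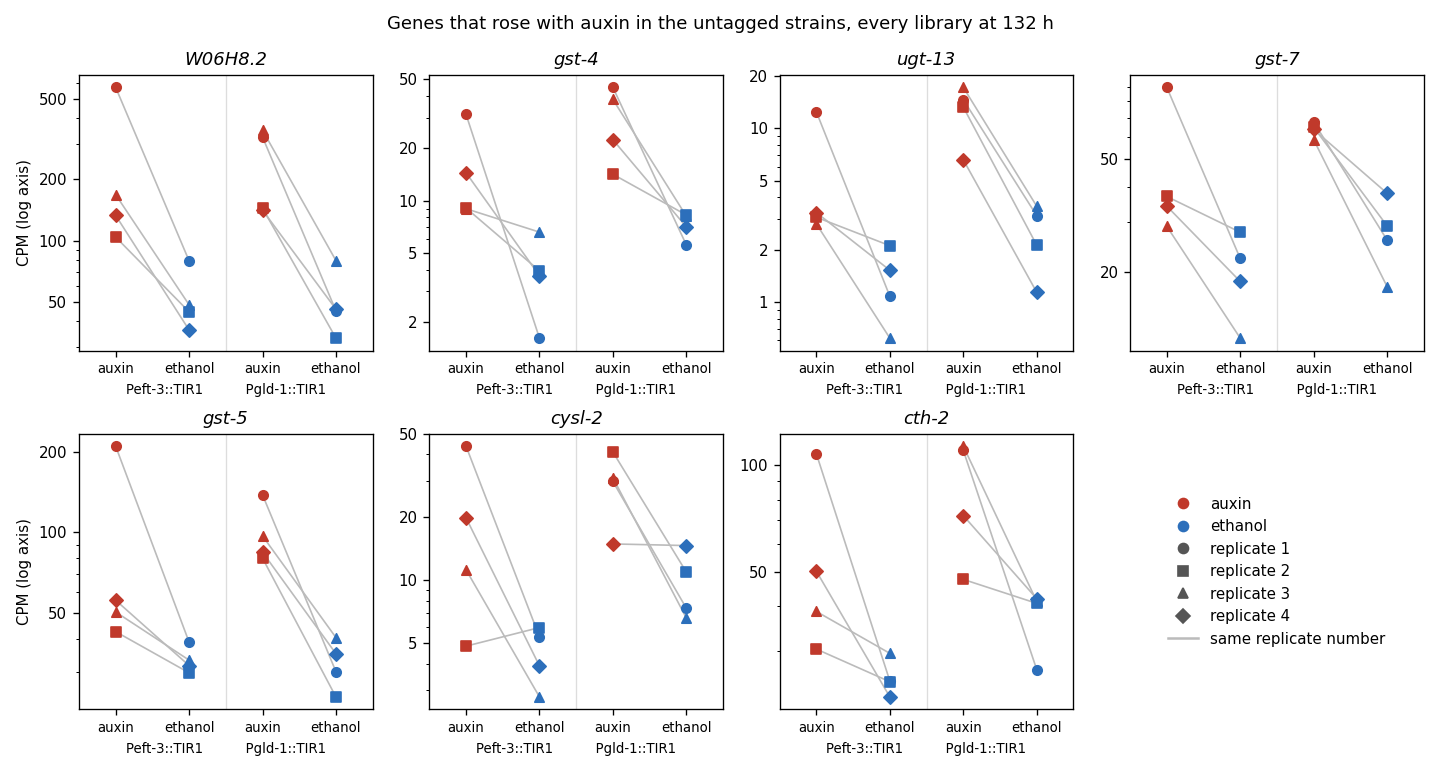
CPM (log axis) of the 7 genes past the threshold in each of the 16 libraries, with auxin left of ethanol in each strain, a marker shape for each replicate number and a line joining the cultures that share a number. Libraries with auxin lie above those with ethanol of the same strain for every gene except cysl-2, where the Peft-3::TIR1 groups overlap, and the highest auxin library of Peft-3::TIR1 is replicate 1 for all 7.

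The glutathione S-transferases gave 3 of the 7 genes. These enzymes attach glutathione to electrophilic compounds. gst-4, on chromosome IV at 10142225 to 10143099 (WBcel235), is widely used as a reporter of SKN-1 activity. It stood at 31.4, 9.06, 8.98 and 14.5 CPM with auxin, against 1.61, 3.94, 6.58 and 3.69 CPM with ethanol, in replicates 1 to 4 of Peft-3::TIR1. In Pgld-1::TIR1 it stood at 44.9, 14.2, 38.2 and 22.4 CPM with auxin, against 5.56, 8.26, 8.14 and 7.05 CPM with ethanol. All auxin libraries of a strain were above all ethanol libraries of that strain, and the fold within a replicate number varied widely, between 1.36 and 19.4. The pooled change of gst-4 was 1.98 ± 0.31 (log2, SE, n = 8 against 8, edgeR adjusted p = 0.00898), which is 3.94-fold. The changes were 2.02 ± 0.42 in Peft-3::TIR1 and 1.93 ± 0.46 for Pgld-1::TIR1.

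gst-5, on chromosome II at 10950352 to 10951603, had 210, 42.5, 50.3 and 55.7 CPM with auxin, against 38.8, 29.8, 33.2 and 31.7 CPM with ethanol, in Peft-3::TIR1. Its levels in Pgld-1::TIR1 were 138, 80.1, 97.0 and 84.3 CPM with auxin, against 30.1, 24.2, 40.4 and 35.1 CPM with ethanol. The ethanol libraries were tightly grouped in both strains, and the auxin library of replicate 1 was far above its group in Peft-3::TIR1. gst-5 rose by 1.45 ± 0.26 (log2, SE, edgeR adjusted p = 0.0241), or 2.73-fold.

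gst-7, on chromosome II at 4882062 to 4883358, had 89.6, 36.97, 29.02 and 34.2 CPM with auxin, against 22.4, 27.7, 11.7 and 18.6 CPM with ethanol, in Peft-3::TIR1. With auxin the 4 libraries of Pgld-1::TIR1 were close together, at 67.7, 64.8, 58.6 and 63.7 CPM, against 25.97, 29.1, 17.8 and 37.9 CPM with ethanol. The groups did not overlap in either strain. gst-7 rose by 1.27 ± 0.21 (log2, SE, edgeR adjusted p = 0.0138), which is 2.41-fold.

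Another transferase, gst-12, did not pass in the pooled test and passed with the replicate block and under several other settings, DESeq2 among them. With auxin its libraries had 37.1, 4.45, 6.08 and 3.96 CPM in Peft-3::TIR1 and 12.8, 15.9, 15.8 and 6.86 CPM in Pgld-1::TIR1. With ethanol they had 3.77, 1.83, 1.23 and 2.39 CPM in Peft-3::TIR1 and 0.604, 2.83, 5.09 and 3.24 CPM in Pgld-1::TIR1. No auxin library of a strain was as low as any of its ethanol libraries, but the folds within a replicate number spread between 1.66 and 21.2. The change of gst-12 was 2.23 ± 0.46 (log2, SE, edgeR adjusted p = 0.0898), and 2.12 ± 0.34 with the block (adjusted p = 0.00614). Of the 47 glutathione S-transferase genes tested, 3 rose and none fell, 17 had an unadjusted p under 0.05, all of them upward (36.2%, against 3.64% of all genes), and 35 had a fitted change above 0 (74.5%, against 53.8%). The median over the 47 was 0.47, against 0.02 over all genes. Their summed level was 1577, 964, 961.5 and 911.9 CPM with auxin, against 1132, 814.5, 954.9 and 910.8 CPM with ethanol, in Peft-3::TIR1. For Pgld-1::TIR1 the sum was 1127, 1515, 880.8 and 966.5 CPM with auxin, against 938.1, 650, 950 and 1084 CPM with ethanol. These sums overlapped in both strains, and in Pgld-1::TIR1 replicates 3 and 4 were lower with auxin. gst-31 reached 1.73 ± 0.40 (adjusted p = 0.185) and gst-39 0.70 ± 0.15 (adjusted p = 0.147) without passing the test.

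The gst genes lie in clusters of related copies, and reads were kept when they matched up to 2 places in the genome, so the split of reads among close copies is uncertain. gst-7 is followed by gst-8 at 354 bases and preceded by gst-6 at 957 bases on the same strand. gst-6 changed by 1.02 ± 0.23 (edgeR adjusted p = 0.176) and had between 4.15 and 18 CPM with auxin, against 2.0 to 6.11 CPM with ethanol. gst-12 lies between gst-14 and gst-16, and these changed by −0.58 ± 1.22 and 1.31 ± 0.39 (adjusted p = 0.973 and 0.684). gst-4 shares bases with the same-strand gene dhs-12, whose change was 0.42 ± 0.13 (adjusted p = 0.753), and its other neighbor gst-2 changed by 0.28 ± 0.66.

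Enzymes of sulfur amino acid metabolism gave 2 of the 7 genes. cth-2 encodes a cystathionine gamma-lyase, which releases cysteine in the transsulfuration pathway, and lies on chromosome II at 7056184 to 7057960. It had 108, 30.3, 38.7 and 50.2 CPM with auxin, against 24.7, 24.6, 29.5 and 22.2 CPM with ethanol, in Peft-3::TIR1. For Pgld-1::TIR1 the levels of cth-2 were 110, 47.7, 113 and 72.1 CPM with auxin, against 26.6, 40.8, 41.4 and 42.1 CPM with ethanol. The groups did not overlap in either strain, although replicate 2 differed little, by 1.24-fold in Peft-3::TIR1 and 1.17-fold for Pgld-1::TIR1. cth-2 rose by 1.16 ± 0.22 (log2, SE, edgeR adjusted p = 0.0446), or 2.24-fold.

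cysl-2, a cysteine synthase-like gene known as a target of the hypoxia pathway, lies on chromosome II at 14492874 to 14494451. Its levels were 43.8, 4.85, 11.2 and 19.9 CPM with auxin, against 5.38, 5.96, 2.78 and 3.91 CPM with ethanol, in Peft-3::TIR1. Pgld-1::TIR1 had 29.7, 41.1, 30.9 and 14.9 CPM with auxin, against 7.37, 10.97, 6.61 and 14.7 CPM with ethanol. Here the groups overlapped in Peft-3::TIR1, where replicate 2 was lower with auxin (0.815-fold), and just failed to overlap in Pgld-1::TIR1, where replicate 4 was almost level (1.02-fold). cysl-2 rose by 1.90 ± 0.35 (log2, SE, edgeR adjusted p = 0.0341), with auxin higher in 7 of 8 replicate pairs. The short-chain dehydrogenase gene dhs-8 lies 3575 bases away on the other strand and was higher in 8 of 8 pairs. dhs-8 was scarce, with 4.88, 3.16, 3.08 and 4.16 CPM with auxin, against 0.615, 0.366, 2.88 and 0.434 CPM with ethanol, in Peft-3::TIR1. It had 2.6, 7.65, 10.1 and 5.04 CPM with auxin, against 0.121, 1.06, 0.339 and 1.3 CPM with ethanol, in Pgld-1::TIR1. Its change was 2.57 ± 0.50 (edgeR adjusted p = 0.0593), and 2.87 ± 0.50 with the replicate block (adjusted p = 0.0118), which called it.

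Glutathione reductase, gsr-1, which returns oxidized glutathione to its reduced form, also passed with the block. It had 314, 110, 128 and 132 CPM with auxin, against 102, 101, 79.7 and 94.8 CPM with ethanol, in Peft-3::TIR1. Levels in Pgld-1::TIR1 were 270, 165, 215 and 196 CPM with auxin, against 106, 99.2, 139 and 110 CPM with ethanol. The groups did not overlap in either strain, and the change of gsr-1 was 0.83 ± 0.17 (adjusted p = 0.0698) without and 0.77 ± 0.13 (adjusted p = 0.00829) with the block. gcs-1, the glutamate-cysteine ligase that catalyzes the first step of glutathione synthesis, ranged between 56.4 and 112 CPM with auxin, against 52.3 to 71.5 CPM with ethanol, and did not pass (0.38 ± 0.12, adjusted p = 0.765). Over 21 glutathione and transsulfuration enzymes, a list drawn up after values had been seen, 2 rose, none fell and 15 had a change above 0, with a median of 0.28. Their summed level was 865, 471, 516 and 508 CPM with auxin, against 414, 465, 415 and 394 CPM with ethanol, in Peft-3::TIR1. For Pgld-1::TIR1 the sum was 761, 610, 726 and 660 CPM with auxin, against 445, 464, 510 and 461 CPM with ethanol. The sums did not overlap in either strain.

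W06H8.2, on chromosome V at 6206755 to 6208561, had the smallest adjusted p of the 7. The annotation used here gives it no name beyond this identifier. Levels were 569, 104.04, 168 and 133 CPM with auxin, against 79.5, 44.5, 48.2 and 36.3 CPM with ethanol, in Peft-3::TIR1. The Pgld-1::TIR1 libraries had 324, 145, 350 and 141 CPM with auxin, against 45.1, 33.03, 79.7 and 45.9 CPM with ethanol. The groups were well separated in both strains, and every replicate pair was higher with auxin, by 2.34-fold to 7.19-fold with a median of 4.03-fold. W06H8.2 rose by 2.15 ± 0.31 (log2, SE, edgeR adjusted p = 0.00526), or 4.43-fold, and by 2.07 ± 0.15 with the replicate block (adjusted p = 6.47e-08). Neither neighbor passed the test: ttn-1 changed by 0.02 ± 0.12 and rme-1, which begins 324 bases away on the same strand, by −0.06 ± 0.12 (adjusted p = 0.996 and 0.973).

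ugt-13 was the only UDP-glycosyltransferase gene called, of 61 tested. It lies on chromosome V at 4908884 to 4911399 and was scarce, with 12.4, 3.07, 2.81 and 3.27 CPM with auxin, against 1.08, 2.11, 0.617 and 1.52 CPM with ethanol, in Peft-3::TIR1. Pgld-1::TIR1 had 14.7, 13.3, 17.3 and 6.6 CPM with auxin, against 3.14, 2.12, 3.56 and 1.14 CPM with ethanol. The groups did not overlap in either strain. ugt-13 rose by 2.03 ± 0.34 (log2, SE, edgeR adjusted p = 0.0138), or 4.08-fold. The median over the 61 genes of the family was 0.07, with 35 above 0, and the next by p was ugt-50, at −0.22 ± 0.09 (adjusted p = 0.792).

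Among the other genes called with the block were wdr-23 and alh-1. wdr-23 encodes the adaptor that keeps SKN-1 low, and it had 151, 104.45, 112 and 121 CPM with auxin, against 80.0, 83.0, 94.0 and 109 CPM with ethanol, in Peft-3::TIR1. The Pgld-1::TIR1 libraries had 182, 128, 199 and 148 CPM with auxin, against 110, 93.6, 102 and 124 CPM with ethanol. The change of wdr-23 was small, 0.53 ± 0.11 with the block (edgeR adjusted p = 0.0493), and the groups overlapped in Peft-3::TIR1 only. alh-1, an aldehyde dehydrogenase gene, changed by 0.63 ± 0.11 with the block (adjusted p = 0.0103) with overlap in both strains and auxin higher in 7 of 8 pairs. F56D5.3 had between 3.87 and 22.9 CPM with auxin, against 1.37 to 3.56 CPM with ethanol, and changed by 1.79 ± 0.28 with the block (adjusted p = 0.00573). fcmt-1 had between 14.6 and 77.5 CPM with auxin, against 8.23 to 26.3 CPM with ethanol, and changed by 1.25 ± 0.21 with the block (adjusted p = 0.00829). osgn-1, T25B9.9 and F17A9.4 changed by between 0.55 and 0.66 with the block (adjusted p = 0.0282, 0.032 and 0.0345). Auxin was higher in 8 of 8 replicate pairs for 15 of the 17 genes, the exceptions being cysl-2 and alh-1, a description only, since the test that chose the 17 used these pairs.

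The strength of the response varied among cultures in a way the 17 genes shared. Replicate 1 was the highest auxin library of Peft-3::TIR1 for 17 of the 17, and it is the library that stood apart on principal component 2. Among the auxin libraries of Pgld-1::TIR1, replicate 3 was the highest for 9 genes, replicate 1 for 6 and replicate 2 for 2. Without the auxin library of replicate 1 of Peft-3::TIR1, 8 genes were called, and the 7 were all among them. Without that library and the ethanol library of replicate 4 of Pgld-1::TIR1, 10 were called and the 7 were again among them. With the block and without both cultures of each, 19 genes were higher and 3 lower (asp-1 at −0.48, zip-2 at −0.46 and R03H10.6 at −0.65), and the 19 held all 7 and 15 of the 17.

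The number of calls depended on single libraries. W06H8.2 and gst-4 were called in all 16 fits that left out 1 library, gst-7 in 13, ugt-13 in 11, gst-5 in 9 and cysl-2 and cth-2 in 5 each, with the highest adjusted p across these fits at 0.0343 for W06H8.2, 0.0488 for gst-4, 0.0652 for gst-7 and ugt-13, 0.116 for gst-5, 0.139 for cysl-2 and 0.18 for cth-2. Leaving out an ethanol library gave 2 genes (Peft-3::TIR1 replicate 4, Pgld-1::TIR1 replicate 1 or replicate 3), 3 genes (Pgld-1::TIR1 replicate 2), 4 genes (Peft-3::TIR1 replicate 2), 5 genes (Peft-3::TIR1 replicate 1 or replicate 3) or 19 genes (Pgld-1::TIR1 replicate 4). Leaving out an auxin library gave 3 genes without Pgld-1::TIR1 replicate 3, 12 without Peft-3::TIR1 replicate 2 and between 5 and 8 without any of the other 6. The fitted changes moved less than the calls: over the same fits W06H8.2 ran between 1.78 and 2.29, gst-4 between 1.75 and 2.14 and cth-2 between 0.94 and 1.29. All 17 genes had a change above 0 in every fit of the untagged strains. With all 48 libraries in 1 fit, ugt-13 was not called (adjusted p = 0.442) and the 6 others of the 7 were.

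Groups were also compared without a model. For 18 genes (0.116% of those tested) every auxin library was above every ethanol library of its strain in both strains, and 6 of the 7 and 10 of the 17 were among the 18. In Peft-3::TIR1 alone 13 of the 17 were separated upward (1.4% of all genes were) and in Pgld-1::TIR1 alone 12 of the 17 (1.38% of all genes were). As the 17 were chosen on these libraries, these counts describe them and support nothing further. The others included gst-39, gst-40 and the nuclear hormone receptor gene nhr-4, picked out after their values were seen. Another 4 genes (0.0257%) were separated downward in both strains, namely nduv-2, igcm-4, zip-4 and T07D4.5, and 1 (R08C7.12, 0.00643%) was separated in opposite directions. nduv-2 changed by −0.42 ± 0.12 (edgeR adjusted p = 0.684) and zip-4 by −0.26 ± 0.09 (adjusted p = 0.767).

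Among the gene lists, that of SKN-1 and its reported targets had a median change of 1.16, against 0.02 over all genes. Of the 14 tested, 3 rose, none fell, 11 had an unadjusted p under 0.05 in the upward direction and all 14 had a change above 0. The median was 1.22 for Peft-3::TIR1 alone and 1.41 for Pgld-1::TIR1. Summed, they had 1020, 572, 606 and 613 CPM with auxin, against 484, 478, 495 and 509 CPM with ethanol, in Peft-3::TIR1. For Pgld-1::TIR1 the sum was 1020, 667, 851 and 767 CPM with auxin, against 599, 518, 616 and 600 CPM with ethanol. These sums did not overlap in either strain. The list was chosen with earlier results of these data known. It holds gst-4, gst-5 and gst-7, which the pooled test called, and wdr-23, dhs-8 and F56D5.3, which the block called. Its values in the untagged strains therefore describe it and support nothing further. Transcripts of skn-1 itself ran between 277 and 412 CPM with auxin, against 238 to 358 CPM with ethanol, a change of 0.11 ± 0.09 (edgeR adjusted p = 0.922).

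**Figure D2:**
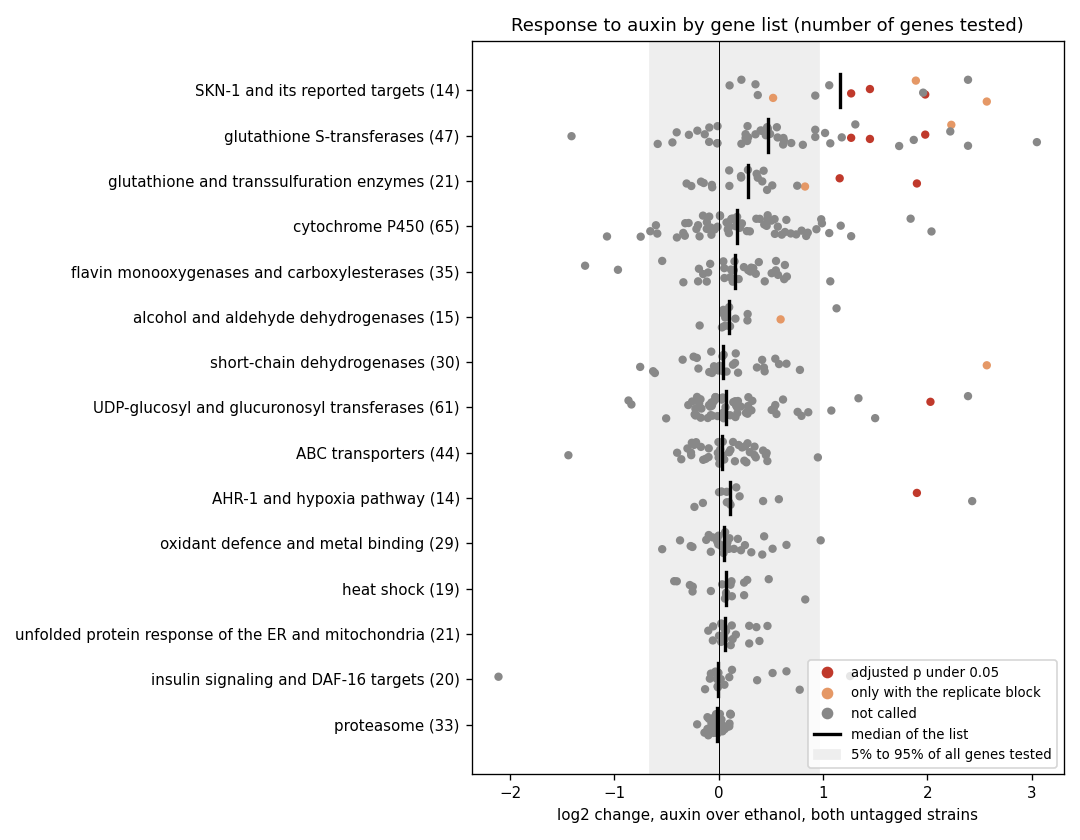
Log2 change with auxin (auxin over ethanol, both strains pooled) of every tested member of 15 gene lists, with a line at the median of each list and a gray band for the range that holds the middle of all 15549 genes, −0.655 to 0.96 (5th to 95th percentile). The median of the SKN-1 list is at 1.16, beyond the band, that of the glutathione S-transferases is at 0.47 with members on both sides of 0, and those of the other lists lie within the band. The lists were chosen with earlier results of these data known, and the SKN-1 list holds called genes.

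Other routes of disposal gave few or no calls. None of 65 cytochrome P450 genes passed the test, with changes between −1.07 and 2.04 and a median of 0.18; at an unadjusted p under 0.05, 4 were higher and 1 lower. cyp-35A2, a P450 gene that many foreign compounds induce, had between 5.74 and 14.4 CPM with auxin, against 2.37 to 9.5 CPM with ethanol (0.74 ± 0.23, edgeR adjusted p = 0.737). The summed P450 level was 493.2, 391.9, 392.5 and 374.6 CPM with auxin, against 465.3, 373.7, 469.1 and 413.7 CPM with ethanol, in Peft-3::TIR1, where the groups overlapped. It was 447.5, 480.9, 387.4 and 477.5 CPM with auxin, against 412.8, 403.8, 375.0 and 425.1 CPM with ethanol, in Pgld-1::TIR1, higher with auxin in the 4 same-numbered pairs and with overlap between the groups. Of the 65 genes 44 had a change above 0 (67.7%, against 53.8%). None of 44 ABC transporter genes was called (median 0.03), mrp-7 coming closest at 0.43 ± 0.10 (adjusted p = 0.263). None of 35 flavin monooxygenase and carboxylesterase genes (median 0.15) and none of 30 short-chain dehydrogenase genes (median 0.04) was called without the block, which called dhs-8 alone in these families. At an unadjusted p under 0.05, 4 ABC transporter genes were higher (9.09%) and 3 lower. Higher were also 4 flavin monooxygenase and carboxylesterase genes (11.4%) and 5 short-chain dehydrogenase genes (16.7%), with 0 lower in either list. Over all genes 3.64% were higher.

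Heat shock and unfolded protein genes encode chaperones that refold damaged proteins. No gene was called among 19 heat shock genes (median 0.07), of which 0 had an unadjusted p under 0.05, or among 21 genes of the unfolded protein response (median 0.06), of which 5 had an unadjusted p under 0.05, all upward (23.8%, against 3.64% of all genes), and 18 had a change above 0 (85.7%, against 53.8%). In the germline degron strain the unfolded protein response genes had a median of −0.02, with 10 of 21 above 0. The endoplasmic reticulum chaperone genes hsp-3 and hsp-4 changed by 0.36 ± 0.10 and 0.47 ± 0.19 (edgeR adjusted p = 0.651 and 0.792). Among 29 oxidant defense and metal-binding genes 2 had an unadjusted p under 0.05 and none was called (median 0.05). The pathway of the aryl hydrocarbon receptor AHR-1, which binds indole compounds in vertebrates, and of hypoxia had 1 call of 14, cysl-2, and ahr-1 itself changed by 0.03. Of these 14 genes, 3 had an unadjusted p under 0.05, all upward (21.4%), and 12 had a change above 0 (85.7%). Antimicrobial genes (192 tested, median 0.05), pals genes of the intracellular pathogen response (36 tested, median 0.26), nuclear hormone receptors (225 tested, median 0.07) and insulin and DAF-16 genes (20 tested, median 0.00) held no called gene. At an unadjusted p under 0.05, these 4 lists had 8 (4.17%), 4 (11.1%), 20 (8.89%) and 1 (5%) genes higher, in that order. They had 2, 0, 1 and 0 lower.

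TIR1 acts through the SCF ligase and the proteasome. Of 32 genes of the SCF ligase and the COP9 signalosome and 33 of the proteasome none was called, with 14 of each list above 0 and a proteasome median of −0.01. ama-1, untagged here, had between 347 and 868 CPM with auxin, against 425 to 803 CPM with ethanol (0.00, edgeR adjusted p at least 0.954 for this and the next genes). The worm genes whose promoters or untranslated regions the transgenes carry were also tested. eef-1A.1 (the gene also called eft-3) was at 0.01, unc-54 at 0.11 and gld-1 at −0.08. The worm's own unc-119, which is not the Cbr-unc-119(+) of the rescue marker, was at −0.11. Among the 10 genes with the smallest p on the lower side none passed the test. ncbp-2 changed by −0.36 (adjusted p = 0.408), and ace-4 and fbxa-145 had the deepest fitted values, −1.20 and −1.12. T24A6.7, fbxa-145 and nduv-2 were lower with auxin in 8 of 8 pairs.

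The question of whether the effect differed between the strains, which make TIR1 in different tissues, was put to each gene by the difference of the strain effects. No gene passed (smallest edgeR adjusted p = 1), with 515 genes at an unadjusted p under 0.05 (3.31%). In the joint fit neither strain alone had a called gene, with 5.94% of genes at an unadjusted p under 0.05 for Peft-3::TIR1 and 3.13% for Pgld-1::TIR1. A likelihood ratio test called 1, Y57A10C.1, which had counts in 3 of the 16 libraries only (11, 6 and 11). The differences of the 7 genes (Peft-3::TIR1 minus Pgld-1::TIR1) lay between −0.09 ± 0.43 for gst-7 and 0.50 ± 0.68 for cysl-2, and the SE of these differences ran between 0.43 and 0.73, which limits what could be seen. W06H8.2 changed by 2.21 ± 0.42 in Peft-3::TIR1 and 2.07 ± 0.47 for Pgld-1::TIR1. cth-2 changed by 1.16 ± 0.30 in Peft-3::TIR1 and 1.17 ± 0.33 for Pgld-1::TIR1, and ugt-13 by 2.00 ± 0.47 in Peft-3::TIR1 and 2.06 ± 0.50 for Pgld-1::TIR1. Fitted on its own 8 libraries, Peft-3::TIR1 gave 7 called genes, C02D5.4, cth-2, cysl-2, fcmt-1, gst-5, W06H8.2 and Y41C4A.32, and Pgld-1::TIR1 gave 2, gst-5 and gst-7. Across all 15549 genes the changes of the 2 strains had a Pearson correlation of −0.04, which describes genes that share libraries and are not independent replicates.

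**Figure D3:**
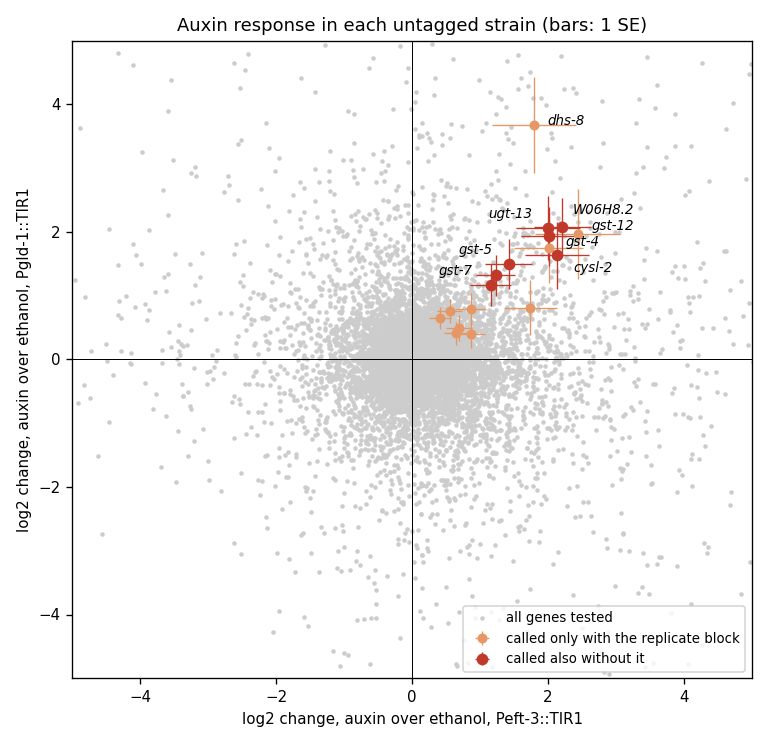
Log2 change with auxin in Peft-3::TIR1 (horizontal) against that of Pgld-1::TIR1 (vertical) for each gene tested, with the 17 genes called with the replicate block in color and with bars of 1 SE; 124 genes lie outside the axes. The cloud of all genes has no slope (r = −0.04), and the 17 lie in the upper right quadrant.

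The germline degron strain gave 8 more libraries with the same treatment that took no part in choosing the genes. There TIR1 is made from the gld-1 promoter as in Pgld-1::TIR1, and AMA-1 carries the degron. The germline of an arrested L1 larva consists of its primordial germ cells. Its fit called 3 genes (0.0193%), all higher: W06H8.2 at 2.48 ± 0.26 (edgeR adjusted p = 0.000878), gst-5 at 1.36 ± 0.14 (adjusted p = 0.000878) and gst-31 at 2.03 ± 0.27 (adjusted p = 0.0114). W06H8.2 had 213, 151, 249 and 300 CPM with auxin, against 28.97, 54.9, 53.2 and 25.1 CPM with ethanol. gst-5 had 94.8, 70.03, 70.5 and 85.9 CPM with auxin, against 34.7, 29.7, 30.5 and 24.2 CPM with ethanol. Both were separated by a wide margin. gst-4 had 16.9, 23.1, 18.4 and 26.8 CPM with auxin, against 10.9, 7.26, 9.94 and 6.17 CPM with ethanol, and did not pass across all genes (1.33 ± 0.24, adjusted p = 0.219). ugt-13 had 17.6, 10.7, 5.32 and 7.77 CPM with auxin, against 4.43, 4.77, 2.14 and 3.87 CPM with ethanol (1.11 ± 0.30).

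All 17 genes had a change above 0 in the germline degron strain, with a median of 1.07, and 16 of the 17 had an unadjusted p under 0.05, against 3.04% of all genes in either direction and 1.82% upward, the exception being dhs-8. In 11 of the 17, every auxin library was above every ethanol library (1.08% of all genes). The SKN-1 list had a median of 0.87 there, with 14 of 14 above 0, and the glutathione S-transferases one of 0.30, with 33 of 47 above 0. The glutathione and transsulfuration enzymes had a median of 0.02 there, with 12 of 21 above 0, against 0.28 and 15 of 21 in the untagged strains. The lists were chosen with earlier results of these data known, so these list medians are no independent check. The difference between the germline degron strain and the untagged strains passed for no gene, with 725 genes at an unadjusted p under 0.05 (4.66%). The calls in this strain also rested on single libraries: without the auxin library of replicate 3 no gene was called, and without the ethanol library of replicate 2 there were 12, with all 7 genes above 0 in each of the 8 fits. With the replicate block 2 were called (0.0129%), gst-5 and W06H8.2.

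**Figure D4:**
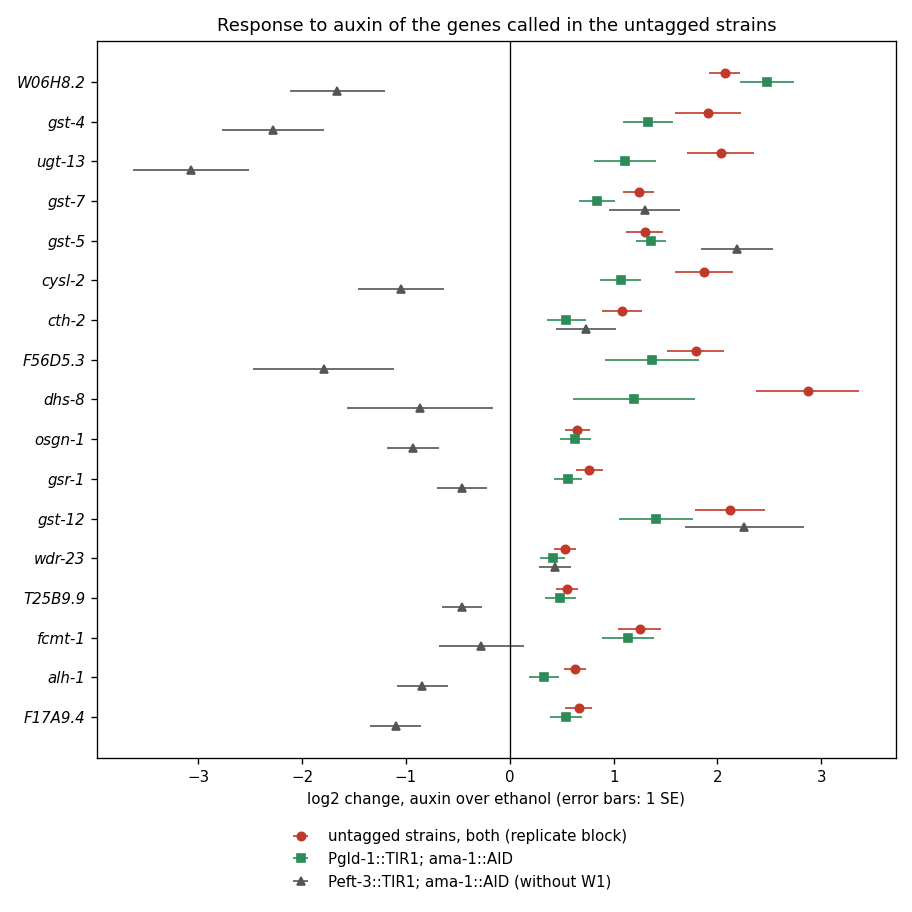
Log2 change with auxin (± 1 SE) of the 17 genes in the untagged strains together (with the replicate block), in the germline degron strain and in the somatic degron strain (fitted without the spike-in factor). All 17 lie above 0 in the first 2. In the third gst-5, gst-12, gst-7, cth-2 and wdr-23 are above 0 (2.19, 2.26, 1.30, 0.74 and 0.43). The others are below it, W06H8.2, gst-4 and ugt-13 among them (−1.66, −2.28 and −3.07).

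Auxin targets the polymerase subunit for degradation in somatic cells of the somatic degron strain, and the question was whether the 7 genes responded alike there. Of the 7 genes, 4 had a lower change there than in the untagged strains by the test of the difference, a class that held 8.99% of all genes (6.6% were higher, and the median difference over all genes was 0.12). The 7 and the 17 were chosen for a high change in the untagged libraries, and the difference subtracts that change. The choice thus favors a lower difference, and the share of all genes is not a like comparison. gst-4 had 0.728, 2.34, 2.68 and 1.91 CPM with auxin, against 7.18, 4.34, 17.3 and 8.46 CPM with ethanol, and the difference from the untagged strains was −4.12 ± 0.79 (log2, SE, edgeR adjusted p = 0.000492). ugt-13 had 0.312, 0.712, 1.29 and 0.509 CPM with auxin, against 5.79, 6.08, 4.95 and 7.01 CPM with ethanol (difference −3.97 ± 0.82, adjusted p = 0.00102). W06H8.2 had 24.04, 11.2, 11.6 and 12.22 CPM with auxin, against 30.3, 37.1, 28.5 and 91.2 CPM with ethanol (difference −3.21 ± 0.77, adjusted p = 0.00436). For these 3 genes all 4 auxin libraries were below all 4 ethanol libraries, the opposite of the order in the untagged strains. Changes within the somatic degron strain were fitted on its 8 libraries with the spike-in factor. These did not pass, at −2.47 for gst-4, −2.15 for ugt-13 and −0.82 for W06H8.2 (edgeR adjusted p = 0.322, 0.485 and 0.758). In a fit without the factor that also held the untagged libraries they passed, at −2.28, −3.07 and −1.66 (adjusted p = 0.000465, 6.05e-05 and 0.00451). The 2 fits differ in libraries and in the factor, so the effect of the factor alone was not tested. cysl-2 had 7.08, 12.8, 10.7 and 11.8 CPM with auxin, against 20.3, 18.2, 25.6 and 23.8 CPM with ethanol, without overlap. It differed from the untagged strains by −3.03 ± 0.73 (adjusted p = 0.00439). Within the strain it changed by −0.93 with the factor (adjusted p = 0.526) and by −1.05 in the fit without it (adjusted p = 0.044). By the test of the difference, dhs-8, F17A9.4, osgn-1 and gsr-1 brought the number of the 17 called lower to 8, with none called in the other direction.

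Other genes of the set were higher with auxin in this strain too. gst-5 had 196, 148, 121 and 136 CPM with auxin, against 34.3, 28.3, 22.7 and 46.2 CPM with ethanol, in the somatic degron strain, and its change of 2.44 there passed the test (edgeR adjusted p = 0.0228), as did that of gst-12 at 3.35 (adjusted p = 0.0342). gst-7 had 72.2, 79.0, 67.6 and 235.4 CPM with auxin, against 44.9, 50.5, 50.0 and 39.6 CPM with ethanol. cth-2 had 89.1, 110.7, 115.9 and 81.2 CPM with auxin, against 75.1, 39.2, 55.4 and 68.2 CPM with ethanol. The groups did not overlap for gst-5, gst-7 or cth-2. Within the strain cth-2 changed by 0.85 with the spike-in factor (adjusted p = 0.411) and by 0.74 in the fit without it (adjusted p = 0.0421). The difference from the untagged strains did not pass for gst-5 (1.02, adjusted p = 0.244), gst-7 (−0.68, adjusted p = 0.483) or cth-2 (−0.37, adjusted p = 0.68). In this strain the spike-in factor moved with auxin and the mRNA pool changed as a whole, and CPM is a share of that pool. For gst-7 the change was −0.30 with the factor, fitted on the 8 libraries of this strain (adjusted p = 0.88). It was 1.30 without the factor, in the fit that also held the untagged libraries (adjusted p = 0.00318). The direction of gst-7 there is thus not settled, and that of fcmt-1 turned between these fits as well (0.99 and −0.27, called in neither). Whether the factor or the added libraries turned them was not tested. The count of genes whose effect differed was 2425 (15.6%) with the factor and 5196 (33.4%) without it, and W06H8.2, gst-4, ugt-13 and cysl-2 were lower in both (−3.90, −4.31, −5.27 and −2.89 without it). The count ran between 1785 and 2932 when 1 library of this strain was left out, and these 4 genes were called each time.

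Before auxin was added, at 36 h, the genes of the set had different starting levels. W06H8.2 was low, with 1.94, 2.55, 9.26 and 6.16 CPM in Peft-3::TIR1 and 6.7, 2.29, 16.95 and 2.47 CPM in Pgld-1::TIR1, below every library at 132 h. cth-2 was high, with 338, 390, 350 and 286 CPM in Peft-3::TIR1 and 362, 374, 263 and 273 CPM in Pgld-1::TIR1, above every library at 132 h with auxin or ethanol. The mean at 132 h in ethanol was above the mean at 36 h in both strains for 11 of the 17 genes. W06H8.2 was higher with auxin than with ethanol on top of a higher level at the later time, and cth-2 was higher with auxin within a lower level at the later time.

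By position, 4 of the 7 and 7 of the 17 genes lie on chromosome II, which holds 17.1% of the genes tested, and none of the 17 lies on X. Some of them share bases with other genes, and since the counting was not stated to use strand, reads in the shared stretches cannot be told apart. gst-5 overlaps nos-1, which had at most 4.72 CPM with auxin and 5.77 CPM with ethanol and changed by −0.37 ± 0.38. cysl-2 overlaps vnut-1, which had between 24.6 and 41.6 CPM with auxin, against 24.9 to 41.6 CPM with ethanol, and changed by −0.05 ± 0.11. cth-2 overlaps ZK1127.3 (0.02 ± 0.16), gsr-1 overlaps C46F11.5 (0.16 ± 0.14) and fcmt-1 overlaps VF13D12L.3 (0.25 ± 0.19). None of these partners passed the test (edgeR adjusted p at least 0.884).

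Some sums of cell type markers stood apart in the library where the response was strongest, and others did not. Those of body wall muscle (3260), intestine (824), neurons (1480), oocyte and eggshell (54.3) and embryo (300) lay within the range of the strain's other libraries at 132 h. Those of pharynx (2330), hypodermis (130) and sperm (3.08) lay above it. In the auxin library of replicate 1 of Peft-3::TIR1 the summed germline markers stood at 189 counts per 1000000 gene counts, against 361 to 404 in the other 3 auxin libraries and 337 to 442 with ethanol. The summed markers of yolk and adult intestine stood at 137 in it, between 2.1 and 20.9 in the other 3 and between 4.12 and 40.5 with ethanol. In Pgld-1::TIR1 the yolk markers spread between 3.6 and 174 with auxin and between 35.8 and 249 with ethanol. The germline markers of that strain stood at 219, 320, 205 and 298 in auxin replicates 1 to 4, against 281, 320, 260 and 432 with ethanol. No marker on any list was at 0 in all 16 libraries. All 7 genes were called without the auxin library of replicate 1 of Peft-3::TIR1. Whether these markers bear on the 7 genes was not tested.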

How the data were processed

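Poly(A) RNA from whole arrested larvae was sequenced as 50 bp paired reads. The authors mapped reads to the C. elegans genome WS273 (WBcel235) with bowtie 1.2.2, keeping reads with up to 2 alignments, and counted them per gene with HTSeq 0.11.2. They deposited unnormalized counts for each library, including 92 spike-in RNAs and 5 HTSeq totals, which were left out of gene totals. Libraries had 14 or 15 PCR cycles by batch, but the batch of each library is not given, so a fit by batch could not be made. Strain, treatment, time and replicate number came from the labels. Replicates were separate cultures.

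The 16 libraries were fitted together in edgeR 4.0.16 (R 4.3.3, limma 3.58.1) by quasi-likelihood, with terms for strain, auxin and a factor (W1) that RUVg (k = 1) estimated from 62 spike-ins over all 48 libraries, upper-quartile scaling and Benjamini-Hochberg adjustment at 0.05. The protein-coding genes kept had over 10 counts in 4 or more of the 48 libraries. DESeq2 1.42.0 and other settings served as alternatives. CPM are counts scaled to 1000000 counts on the tested genes with the upper-quartile factors. Sums of markers are scaled to all gene counts. Group values are per library. Depth limits scarce genes such as dhs-8. The test was run on simulated data first.

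The replicate number was treated as a pairing because the protocol ties the cultures of a replicate to embryos prepared in parallel, although no label states it for each sample. Among the 8 pairs of same-numbered auxin and ethanol libraries the correlation of deviations from the group means averaged 0.102 (0.0134 to 0.174, 4 pairs above 0.1), against −0.0333 for other pairs, and 7 of 8 auxin libraries correlated best with the ethanol library of their own number.

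The genes named were those past the threshold (up to 15 per direction, by fold, with a mean of at least 10 counts in an arm). The 10 lower genes with the smallest unadjusted p were named, since fewer than 5 passed. So were up to 4 members of each list with the smallest p. ama-1, unc-119 and the genes whose promoters or untranslated regions the transgenes carry were named as well. Genes called with the block or in the germline degron strain were added, and a few others were named after their values were seen. The comparison and the gene lists were chosen with earlier results of these data known. The search of promoters for motifs was not run because no promoter sequences were used here.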

Additional observations from a re-analysis of the deposited data

Results flagged for a closer look

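In the auxin group of Peft-3::TIR1, replicate 1 lay far from the other 3 libraries for 4 of the 7 called genes. It had 569 CPM for W06H8.2, against 104.04 to 168 CPM in the others, 12.4 CPM for ugt-13, against 2.81 to 3.27 CPM, 89.6 CPM for gst-7, against 29.02 to 36.97 CPM, and 210 CPM for gst-5, against 42.5 to 55.7 CPM. The same library lay at −67.9 on principal component 2, against 2.36 to 3.27 for the others. The ethanol library of replicate 1 of Pgld-1::TIR1 was low for cth-2, at 26.6 CPM, against 40.8 to 42.1 CPM. The ethanol library of replicate 4 of Pgld-1::TIR1 had a spike-in factor of 0.311, against −0.163 to −0.0854, and a spike-in share of 6.41%, against 1.69% to 2.09%. In the ethanol library of replicate 3 of Peft-3::TIR1, 18.4% of counts were rRNA, against 3.2% to 5.26%, and the 10 most abundant genes took 24.1%, against 10.3% to 12.5%. A sample counted here when its gap to the nearest other sample passed Dixon's 95% critical value, which happened in 10 of 60 groups tested, where chance gives about 1 in 20.

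Between the somatic degron strain and the untagged strains, the effect of auxin differed by −3.21 for W06H8.2, −4.12 for gst-4, −3.97 for ugt-13 and −3.03 for cysl-2 on the log2 scale, each by the interaction term in edgeR. Without the spike-in factor the differences were −3.90, −4.31, −5.27 and −2.89 for the same genes. The genes were chosen for a high change in the untagged libraries, which favors a lower difference.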

How the results depend on the processing

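No called gene of the untagged strains changed direction under any setting. In the somatic degron strain gst-7 (−0.30 and 1.30) and fcmt-1 (0.99 and −0.27) differed in sign between 2 fits. The first held that strain alone with the spike-in factor. The second added the untagged libraries and left the factor out, so this pair of fits does not test the factor alone. The 7 genes higher with auxin became 16 with library size taken from the spike-ins (which moved the median of all genes to 0.16), 12 without the spike-in factor, 27 by the likelihood ratio test, 23 by DESeq2, 11 with all 48 libraries (without ugt-13), 22 with 12 against 12 libraries, 15 without the filter on low counts, 2 with at least 50 counts in 8 libraries, 2 in Pgld-1::TIR1 alone, 17 with the replicate block, 2 at an adjusted p under 0.01 and 12 under 0.1. TMM, the spike-in factor from the 16 libraries alone and all biotypes gave 7 each. Leaving out 1 library gave between 2 and 19. The cause of these shifts was not tested, except that the stricter filter tests fewer genes (9146). Genes lower with auxin numbered 0 in all of these. With both libraries that stand apart left out (chosen after seeing the data) there were 10 higher, and with the block and without both of their cultures 19 higher and 3 lower. The difference between strains gave 0 genes, and 1 by the likelihood ratio test. In the germline degron strain, 3 genes became 2 with the block and between 0 and 12 with 1 library left out. In the somatic degron strain the difference gave 2425 genes, 5196 without the spike-in factor and between 1785 and 2932 with 1 library left out. The 112 named genes had 3782 values under the settings, and most of these genes were not called to begin with. Of the values, 3468 were the same, either a kept call or an uncalled gene that moved by less than its SE. Another 94 passed the threshold only under the setting, and 165 of uncalled genes moved by their SE or more. Only the 7 called genes could lose a call, and 55 of their values did. Fitted changes near 0 of genes that were not called, such as ama-1 (−0.07 to 0.09) and gld-1 (−0.20 to 0.03), took either sign. Promoter motifs were not run, because no promoter sequences were used here. Low counts limit dhs-8, gst-12 and ugt-13, and a gene's absence from the called list does not show that it did not respond.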
